A study of Mus musculus with 12 samples.

Results

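Messenger RNA of 10 genes that encode neuronal RNA-binding and splicing regulators was followed in sorted cells of the embryonic mouse spinal cord. The genes are Ptbp1 and Ptbp2, Srrm4, Elavl2, Elavl3 and Elavl4, Rbfox1, Rbfox2 and Rbfox3, and Nova1. They were taken by gene symbol from the 30740 genes of the deposited count table, and all 10 passed the filter on low counts in every comparison. Ventral spinal cord of CB6F1/J embryos carrying the Hb9:GFP reporter was dissociated at E12.5 (embryonic days), and cells were sorted by flow cytometry. Hb9 is another name of Mnx1, a homeobox gene of spinal motor neurons whose promoter drives the reporter, so GFP-positive cells are enriched in motor neurons. The groups were 5 GFP-positive libraries from Arhgap35 knockout embryos, 5 GFP-positive libraries from control littermates, 1 GFP-negative knockout library and 1 GFP-negative control library. Arhgap35 encodes p190, a GTPase-activating protein. The sample labels call the controls wild type, whereas the protocol allows heterozygous littermates among them, and tissue was pooled. All samples are labelled motor neuron, including the GFP-negative ones. The sources used here do not describe the knockout allele.

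PTBP1 (polypyrimidine tract-binding protein) is widespread outside neurons, where it keeps many neuronal exons out of mature transcripts, and its relative PTBP2 takes over during neuronal differentiation. SRRM4 promotes inclusion of short neuronal exons, and NOVA and RBFOX proteins bind short sequence elements and direct exon choice by the position of the site. The neuronal ELAVL proteins (also called HuB, HuC and HuD) bind AU-rich and U-rich sequences and affect the splicing, stability and translation of their targets. RBFOX3 carries the NeuN epitope, a standard marker of mature neurons.

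The sort was checked with marker lists, given here as summed CPM (counts relative to library size, with sizes scaled by TMM, the method by which edgeR makes libraries comparable). The 8 motor neuron markers summed to 1480 to 1940 CPM in the 10 GFP-positive libraries, against 48 CPM in the knockout and 50.7 CPM in the control GFP-negative library. Postmitotic neuron markers summed to 16700 to 19800 CPM in GFP-positive libraries, against 6250 and 6360 CPM, a gap carried largely by the neurofilament genes Nefl (3746 to 4809 CPM, against 218.5 and 235.2 CPM) and Nefm. Of these 8 genes 7 were higher and 1 was lower, namely Map2, a dendritic microtubule protein, at 1015 to 1294 CPM against 1423 and 1355 CPM. Progenitor markers summed to 461 to 575 CPM in GFP-positive libraries against 2030 and 1850 CPM, with 9 of 10 genes lower. The exception was Nkx6-1, a homeobox gene of ventral progenitors and of some motor neurons, at 40.67 to 52.94 CPM against 10.08 and 10.34 CPM. Proliferation markers summed to 64.6 to 133 CPM against 843 and 729 CPM. Other cell types also differed between the sorts without overlap of their summed markers. Ventral interneuron markers stood at 16.5 to 80 CPM in GFP-positive libraries against 302 and 345 CPM. Of these 8 genes 5 were lower and 3 not called, and Pax2 alone had 224.3 and 255.6 CPM in the GFP-negative libraries. Sensory neuron markers stood at 125 to 187 CPM against 311 and 309 CPM. Of these 6 genes 1 was higher, 2 were lower and 3 not called (median log2 fold change 0.092). Ntrk2 carried most of that sum, at 106.8 to 155.9 CPM against 181.7 and 165.2 CPM. The gap between the sorts was wider for Pou4f1, at 9.321 to 31.17 CPM against 124.6 and 137.4 CPM. Erythroid markers stood at 4.1 to 46.8 CPM against 289 and 204 CPM. Mesenchyme and pericyte markers stood at 3.69 to 14.8 CPM against 27.3 and 28.2 CPM, and microglia markers at 0.756 to 2.73 CPM against 8.51 and 8.98 CPM. Endothelial markers overlapped, at 1.34 to 13.7 CPM against 10.2 and 6.92 CPM. The marker genes named here were picked after their values were seen. Library totals were 23.7 to 33.8 M estimated counts. Arhgap35 had 98.64, 88.25, 102.7, 105.6 and 89.26 CPM in knockout GFP-positive libraries, against 161.2, 202, 178.1, 187.2 and 135.5 CPM in control GFP-positive libraries. All knockout values were below all control values, and the log2 fold change was -0.83 (edgeR adjusted p = 0.0240). Grlf1, an alias of Arhgap35 listed as a separate gene, had 0 to 8.338 CPM in knockout and 23.65 to 72.07 CPM in control GFP-positive libraries.

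Ptbp1 and Ptbp2 each carry an exon of 34 bases, a length that shifts the reading frame when the exon is skipped. These exons are shown because PTBP1 is known to repress the Ptbp2 exon, which leads to decay of the Ptbp2 transcript, and PTBP proteins also repress the Ptbp1 exon. In GENCODE M21 (GRCm38) each is exon 10 of 14 in its transcript, at chr10:79862014-79862047 on the plus strand for Ptbp1 and at chr3:119724612-119724645 on the minus strand for Ptbp2. For each gene, 2 annotated transcripts skip the exon, and all of these are annotated as targets of nonsense-mediated decay. The exons share 26 of 34 bases, and capitals mark the bases at which they differ.
Ptbp1: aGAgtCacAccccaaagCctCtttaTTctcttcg
Ptbp2: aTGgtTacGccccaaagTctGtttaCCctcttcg
The deposited tables sum all transcripts of a gene, so inclusion of these exons was not measured.

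Motor neuron-enriched cells had much less Ptbp1 mRNA than GFP-negative cells, and moderately less Ptbp2 and Srrm4 mRNA. By contrast, Elavl2, Rbfox1 and Rbfox3 were higher in GFP-positive cells, while Nova1 and Elavl4 were slightly higher and Rbfox2 slightly lower. Elavl3, the most abundant of the 10 transcripts per length, did not pass the test. In this comparison (all 12 libraries, genotype as covariate, edgeR quasi-likelihood test with Benjamini-Hochberg adjustment over 19763 genes, threshold 0.05), 9 of the 10 genes passed, 5 higher and 4 lower. Such calls were common, because 61.9% of all genes tested passed, 30.1% higher and 31.8% lower, so the number of calls does not set these genes apart. The median log2 fold change was 0.11 over the 10 genes and 0.018 over all genes tested. In 8 of the 10 genes the GFP-positive and GFP-negative CPM values did not overlap, against a background of 60.7% of genes. In such bulk samples, fewer cells of a type and less RNA per cell cannot be told apart, and the marker lists above differed between the sorts in the same comparison. The part of cell composition in these differences was not tested. Only 1 GFP-negative library per genotype was at hand, both of replicate number 1, so the spread comes mainly from GFP-positive libraries.

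**Figure D1:**
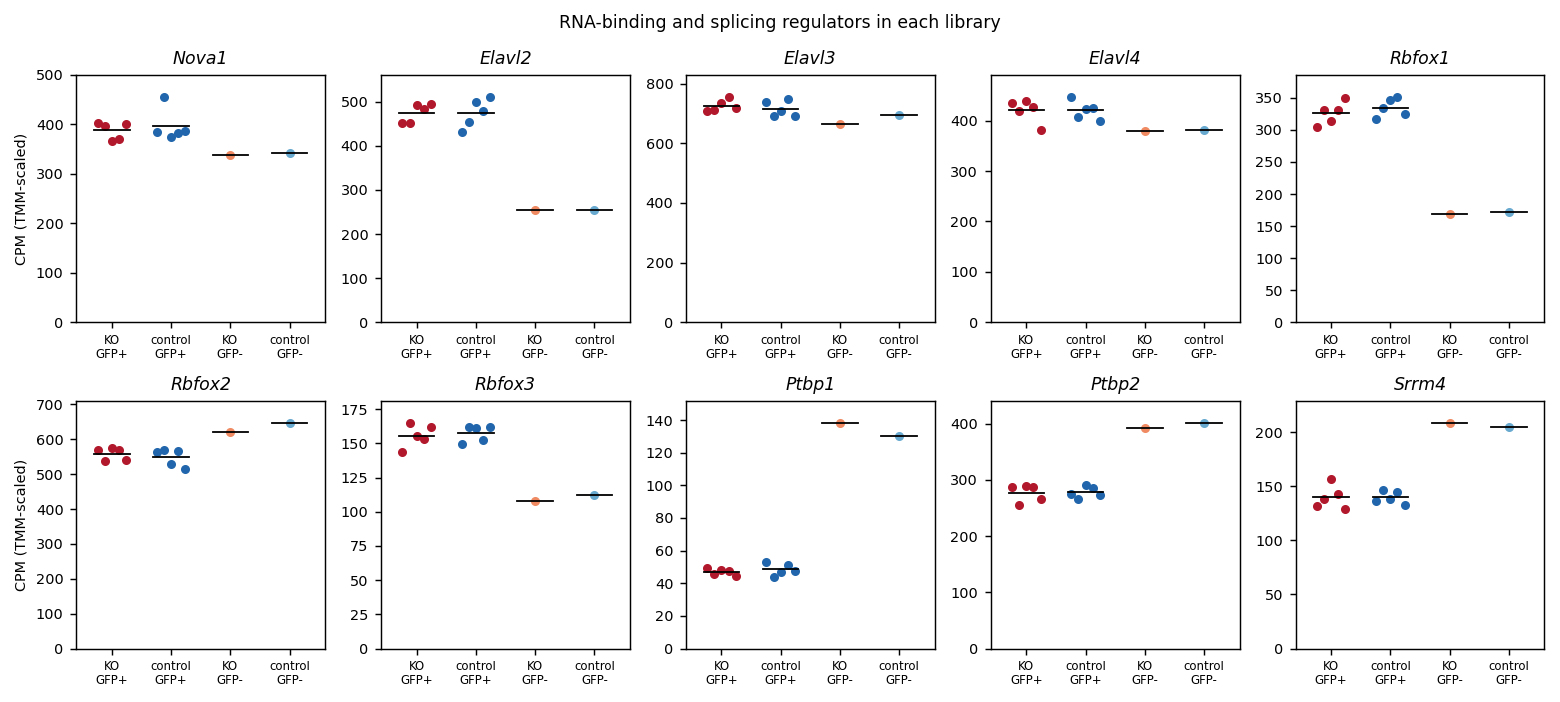
CPM at TMM-scaled library size (vertical axes, from 0) of the 10 genes in each of the 12 libraries, in the order knockout GFP-positive, control GFP-positive, knockout GFP-negative and control GFP-negative, with points for libraries and lines for group means. Knockout and control points intermingle in every panel, while Ptbp1 lies at 43.9 to 52.94 CPM in GFP-positive libraries and at 138 and 130.1 CPM in GFP-negative libraries.

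Ptbp1 (chr10:79854427-79864771) had a lowest, median and highest level of 43.9, 47.46 and 52.94 CPM in GFP-positive libraries, against 138 CPM in the knockout and 130.1 CPM in the control GFP-negative library. Every GFP-positive value was far below both GFP-negative values. The log2 fold change was -1.49 ± 0.0568 (SE), a fold of 0.356 (edgeR adjusted p = 2.15e-10), the largest change among the 10 genes. Ptbp1 shares sequence with other genes, since 27.5% of its 31-base words also occur elsewhere in the annotated transcripts, most often in Gm4900. It also overlaps antisense genes (Gm17134, Plppr3 and E130317F20Rik), and without strand information reads from overlapping exons cannot be told apart. These neighbours were chosen after the values were seen. Plppr3, listed under its older symbol Lppr3, overlaps 251 exonic bases of Ptbp1 and had 450.8 to 536.9 CPM in GFP-positive libraries, against 464.7 and 476.2 CPM in GFP-negative libraries. Its difference between the sorts did not pass the test (log2 fold change 0.075, edgeR adjusted p = 0.209).

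Ptbp2 (chr3:119718742-119784466), the neuronal relative, had 255.1, 280.5 and 290.5 CPM as lowest, median and highest GFP-positive values, against 392.1 CPM in the knockout and 400.6 CPM in the control GFP-negative library. The groups did not overlap, and Ptbp2 was lower in the GFP-positive cells by a smaller margin than Ptbp1 (log2 fold change -0.51 ± 0.0471, edgeR adjusted p = 4.64e-07). Per length, the ratio of Ptbp2 to Ptbp1 in deposited TPM, a measure of transcripts corrected for length, was 3.53 to 4.05 in GFP-positive libraries, against 2.06 in the knockout and 2.26 in the control GFP-negative library. Although both transcripts were lower in GFP-positive cells, the balance between them lay further towards Ptbp2 there. Ptbp3, the third gene of the family, went the opposite way, with 104 ± 4.66 CPM in GFP-positive libraries (SD, n = 10) against 53.2 and 57.6 CPM in GFP-negative libraries (log2 fold change 0.92, edgeR adjusted p = 8.73e-09).

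Srrm4 (chr5:116439275-116591817) had 129.2, 138.3 and 156.4 CPM as lowest, median and highest GFP-positive values, against 208 CPM in the knockout and 205 CPM in the control GFP-negative library. All GFP-positive values were below both GFP-negative values (log2 fold change -0.56 ± 0.0578, edgeR adjusted p = 1.35e-06). Its paralogue Srrm3, which also acts on neuronal microexons, was lower as well (log2 fold change -0.43, edgeR adjusted p = 9.50e-05), and the TPM ratio of Srrm4 to Srrm3 was 0.582 to 0.759 in GFP-positive libraries, against 0.861 and 0.737 in GFP-negative libraries. Those ranges overlapped. Srrm3 was picked after its values were seen.

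The promoters of the 3 genes that were lower in GFP-positive cells by more than 0.5 on the log2 scale are shown for context, from 250 bases before to 50 after the annotated start (RefSeq, GRCm38.p6). Capitals mark matches to the motifs CCAAT and, in the GC-rich class, GGGCGG, each sought on both strands. They also mark the palindrome CAGCTG. The palindrome TAATTA was sought but not found in these windows. Overlapping matches are all marked and counted.
Ptbp1 promoter, chr10:79854182-79854481, plus strand: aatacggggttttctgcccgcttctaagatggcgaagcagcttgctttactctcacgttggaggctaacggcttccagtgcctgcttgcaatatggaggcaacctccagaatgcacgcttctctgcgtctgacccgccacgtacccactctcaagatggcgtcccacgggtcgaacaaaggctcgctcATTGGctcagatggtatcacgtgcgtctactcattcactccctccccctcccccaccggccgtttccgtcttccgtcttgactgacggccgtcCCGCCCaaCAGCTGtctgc
Ptbp2 promoter, chr3:119783339-119783638, minus strand: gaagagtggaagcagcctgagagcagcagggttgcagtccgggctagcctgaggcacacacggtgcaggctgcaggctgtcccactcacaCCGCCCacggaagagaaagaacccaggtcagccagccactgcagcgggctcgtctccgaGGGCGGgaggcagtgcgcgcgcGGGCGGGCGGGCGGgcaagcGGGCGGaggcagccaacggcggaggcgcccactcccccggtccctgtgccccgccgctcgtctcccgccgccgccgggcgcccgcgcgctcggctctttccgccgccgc
Srrm4 promoter, chr5:116591768-116592067, minus strand: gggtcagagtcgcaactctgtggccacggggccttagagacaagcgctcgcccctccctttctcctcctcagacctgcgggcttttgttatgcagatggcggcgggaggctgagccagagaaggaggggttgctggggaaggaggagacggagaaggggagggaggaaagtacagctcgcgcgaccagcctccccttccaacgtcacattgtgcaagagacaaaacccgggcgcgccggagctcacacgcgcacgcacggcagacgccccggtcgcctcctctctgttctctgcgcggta
The Ptbp1 window held 1 match to CCAAT, 1 match to GGGCGG and 1 match to CAGCTG, the Ptbp2 window held 6 matches to GGGCGG, and the Srrm4 window held no match. Among 32851 RefSeq promoter windows of this length, 37.4% held CCAAT, 35.7% GGGCGG, 16.3% CAGCTG and 5.29% TAATTA. GC content was 58.3%, 74.7% and 64.3% in the Ptbp1, Ptbp2 and Srrm4 windows, against a median of 52.7%.

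Within the neuronal Elavl genes, Elavl2 rose clearly in GFP-positive cells, Elavl4 rose slightly and Elavl3 did not pass the test. Elavl2 (chr4:91250763-91400785) had 430.6, 481 and 510.5 CPM as lowest, median and highest GFP-positive values, against 253.6 CPM in the knockout and 255.1 CPM in the control GFP-negative library. No GFP-positive value came near the GFP-negative ones (log2 fold change 0.90 ± 0.0618, edgeR adjusted p = 3.00e-08). Elavl3 (chr9:22015005-22052023), which marks neurons from early in their differentiation, had 690.5, 714.8 and 755 CPM in GFP-positive libraries, against 665.3 and 695.2 CPM in the knockout and control GFP-negative libraries. The groups overlapped, and the log2 fold change of 0.083 had a 95% confidence interval from -0.0045 to 0.17 (edgeR adjusted p = 0.0923). With a filter at 1 CPM in place of edgeR's, this same difference passed (log2 fold change 0.096, edgeR adjusted p = 0.0479). Elavl4 (chr4:110203722-110351909) had 381.6, 424.5 and 446.8 CPM, against 378.6 and 381.9 CPM in the knockout and control GFP-negative libraries. Its lowest GFP-positive value in CPM lay between the GFP-negative ones, and the rise was small (log2 fold change 0.14 ± 0.0519, edgeR adjusted p = 0.0268). In deposited TPM the values of Elavl4 did not overlap, at 298 to 334.9 TPM against 244.4 and 258.3 TPM in the knockout and control GFP-negative libraries. On log2(TPM + 1) the rise of Elavl4 was larger, at 0.34 (limma adjusted p = 3.79e-05), while without the knockout GFP-negative library, or without the control one, it was no longer called (edgeR adjusted p = 0.166 and 0.132). The widely expressed paralogue Elavl1 (HuR), picked after its values were seen, fell in GFP-positive cells (log2 fold change -0.66, edgeR adjusted p = 6.33e-07).

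Summed TPM of the 3 neuronal Elavl genes was 1069 to 1149 in GFP-positive libraries, against 816.2 in the knockout and 855.2 in the control GFP-negative library. Elavl2 made up 28.4 to 34.8% of this sum in GFP-positive libraries, against 21.4 and 21.1% in GFP-negative libraries. Elavl3 made up 37.9 to 41.6%, against 48.7% in each GFP-negative library, and Elavl4 27.2 to 30%, against 29.9 and 30.2%. The mix thus differed in its Elavl2 and Elavl3 parts, with no overlap between the sorts, while the Elavl4 part overlapped.

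ELAVL proteins are known to bind AU-rich 3′ UTRs, including those of their own family, so the motif TATTTAT was sought in the transcript strand of the 3′ UTR of the longest coding transcript of each gene in GENCODE M21, counting overlapping matches. It occurred in 26.3% of 21877 genes, whose median 3′ UTR had 875 bases. Elavl2 held 3 matches in 2477 bases, Elavl3 held 3 in 3498 bases, Elavl4 held 2 in 2595 bases, Nova1 held 4 in 5452 bases, Srrm4 held 9 in 5292 bases and Ptbp1 held 1 in 1494 bases. The other 4 genes held no match. The first match of each Elavl gene and the single match of Ptbp1 are shown with their flanks, the motif in capitals.
Elavl2: gtttacattttTATTTATgaagttacaaac
Elavl3: ctgtgtttaacTATTTATtctccttgttgg
Elavl4: cttgaaacactTATTTATttaattgcagat
Ptbp1: aagagtgtaaaTATTTATgattttatacct
These 3′ UTRs are longer than the median, and a match describes letters, not binding.

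**Figure D2:**
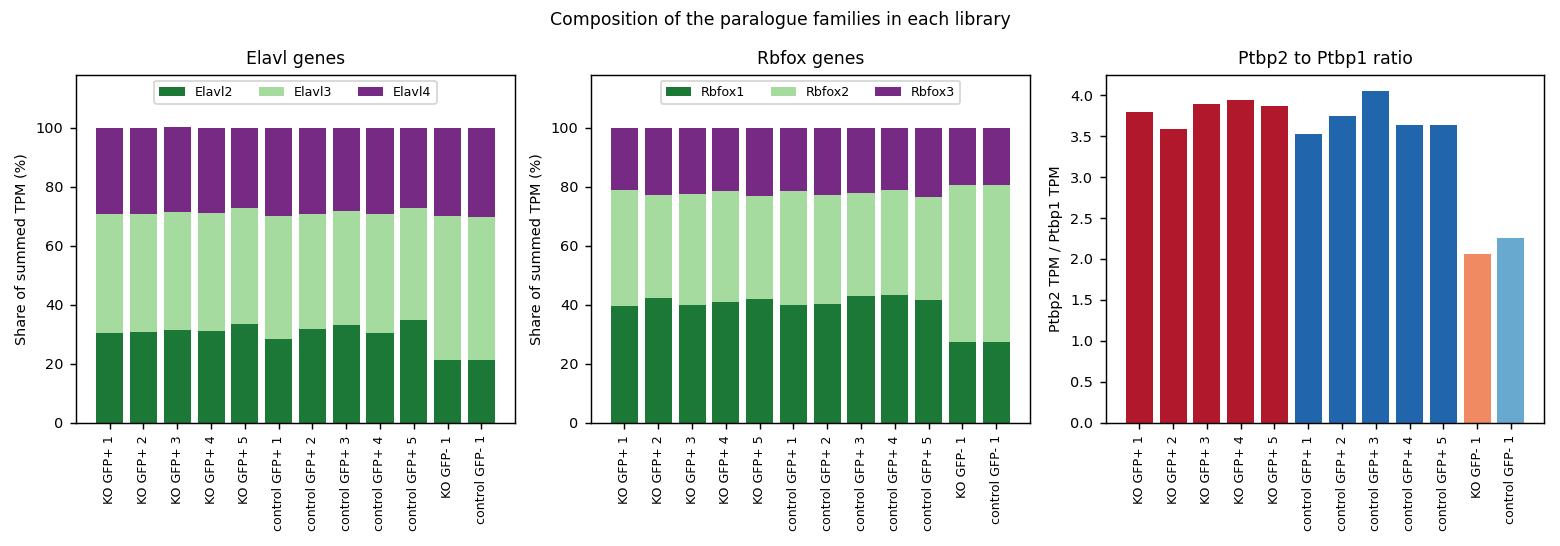
Shares of summed TPM (%) taken by each Elavl gene (left) and each Rbfox gene (middle), and the ratio of Ptbp2 to Ptbp1 TPM (right), with 1 bar per library in the order knockout GFP-positive, control GFP-positive, knockout GFP-negative and control GFP-negative. Elavl2 takes 28.4 to 34.8% and Rbfox1 39.5 to 43.2% in GFP-positive libraries, against at most 21.4% and 27.4% in GFP-negative libraries, and the Ptbp2 to Ptbp1 ratio is 3.53 to 4.05 against 2.06 and 2.26.

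The Rbfox genes split, with Rbfox1 and Rbfox3 higher and Rbfox2 lower in GFP-positive cells. Rbfox1 (chr16:5885355-7411526), a regulator of neuronal exons, had 305, 331.8 and 351.3 CPM as lowest, median and highest GFP-positive values, against 169.5 CPM in the knockout and 172.4 CPM in the control GFP-negative library. The gap between the sorts was wide (log2 fold change 0.95 ± 0.0544, edgeR adjusted p = 6.18e-09). Rbfox3 (chr11:118489762-118911597) had 143.6, 158.2 and 164.6 CPM, against 107.6 and 112.4 CPM in the knockout and control GFP-negative libraries. All its GFP-positive values were above the GFP-negative ones (log2 fold change 0.51 ± 0.0514, edgeR adjusted p = 1.20e-06). Rbfox2 (chr15:77078990-77307004), the family member found most widely outside neurons, had 515.2, 565.3 and 573.9 CPM, against 621.5 and 645.8 CPM in the knockout and control GFP-negative libraries. The fall was small (log2 fold change -0.20 ± 0.0442, edgeR adjusted p = 0.00156), and without the control GFP-negative library it was not called (log2 fold change -0.16, edgeR adjusted p = 0.0573).

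By TPM, Rbfox1 and Rbfox2 traded the leading place in the family. Rbfox1 made up 39.5 to 43.2% of summed Rbfox TPM in GFP-positive libraries, against 27.4% in each GFP-negative library. Rbfox2 made up 34.6 to 39.3%, against 53.2 and 53.3%, and Rbfox3 21.2 to 23.5%, against 19.4 and 19.3%. The sum itself was 509.6 to 555.9 TPM in GFP-positive libraries, against 396.2 and 414 TPM. None of these shares overlapped between the sorts. The letters TGCATG, to which RBFOX proteins bind, were counted in the same 3′ UTRs and occurred in 30.7% of genes. Nova1 held 6 matches, Rbfox3 held 2, Elavl3, Elavl4, Ptbp2 and Srrm4 held 1 each, and the other 4 genes held none.

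Nova1 (chr12:46694517-46818929), first known as an autoantigen and a regulator of synaptic exons, had 366, 386 and 455.1 CPM as lowest, median and highest GFP-positive values, against 337 CPM in the knockout and 341.4 CPM in the control GFP-negative library. All GFP-positive values were above the GFP-negative ones by a narrow margin (log2 fold change 0.21 ± 0.0642, edgeR adjusted p = 0.0115). Without the control GFP-negative library, or without the knockout one, Nova1 was not called (edgeR adjusted p = 0.102 and 0.0797). Its relative Nova2 was lower in GFP-positive cells, with 302.2, 346.6 and 382.8 CPM against 416.5 and 435.8 CPM in the knockout and control GFP-negative libraries (log2 fold change -0.31, edgeR adjusted p = 0.000575, and 0.0580 without the control GFP-negative library). The TPM ratio of Nova1 to Nova2 was 1.22 to 1.82 in GFP-positive libraries, against 1.01 and 0.993, with no overlap.

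**Figure D3:**
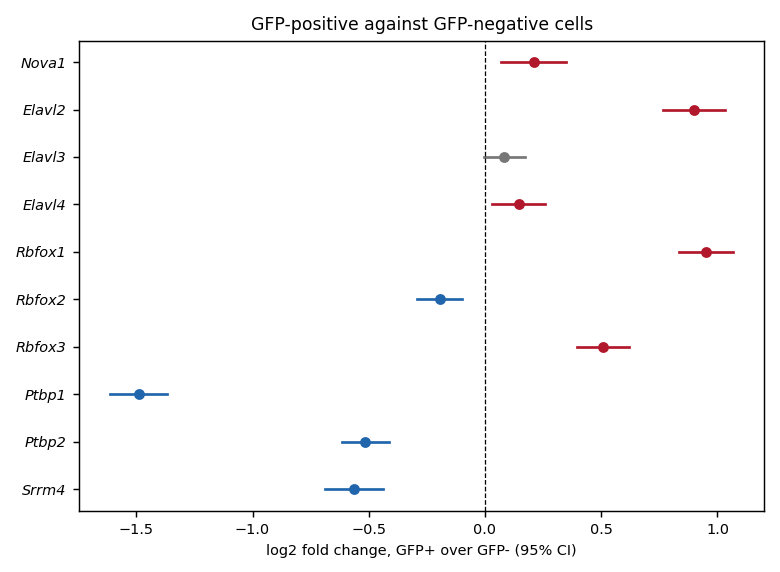
Log2 fold change of GFP-positive over GFP-negative cells for the 10 genes (horizontal axis), with points for edgeR estimates from 12 libraries and bars for 95% confidence intervals. Red marks higher and blue lower calls at an edgeR adjusted p below 0.05, and grey marks Elavl3, whose interval from -0.0045 to 0.17 includes 0, while Ptbp1 lies lowest at -1.49 and Rbfox1 highest at 0.95.

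Levels between genes were compared in TPM, which is per length. In all 10 GFP-positive libraries Elavl3 stood highest, at 411.9 to 462.4 TPM, followed by Elavl2 and Elavl4, at 303.3 to 388.9 and 298 to 334.9 TPM. Elavl2 and Elavl4 are neighbours whose ranges overlap. Rbfox1 at 201.1 to 240.1 TPM, Ptbp2 at 183.5 to 209.6 TPM and Rbfox2 at 178.1 to 200.8 TPM came next. The range of Ptbp2 overlapped those of Rbfox1 and Rbfox2, while Rbfox1 stood above Rbfox2 by a narrow margin. Nova1 at 126.9 to 161.2 TPM and Rbfox3 at 108.1 to 125.1 TPM followed without overlap. Ptbp1 at 50.35 to 56.97 TPM and Srrm4 at 41.83 to 51.77 TPM were lowest, and although their ranges touched, Ptbp1 stood above Srrm4 within each library. Both GFP-negative libraries had the order Elavl3, Ptbp2, Elavl4, Rbfox2, Elavl2, Ptbp1, Nova1, Rbfox1, Rbfox3 and Srrm4, in which Ptbp1, at 134.2 TPM in the knockout and 126.7 TPM in the control library, stood above Nova1, Rbfox1 and Rbfox3.

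In GFP-positive cells the knockout and control libraries were close for all 10 genes, and none was called. Fold changes ran from -0.051 for Ptbp1 to 0.025 for Rbfox2 on the log2 scale, and the 95% confidence intervals of the 10 genes reached from -0.17 at the lowest to 0.11 at the highest. The smallest unadjusted p was 0.363 and each edgeR adjusted p was 0.9999 (edgeR, 5 against 5 libraries, 17487 genes). At an unadjusted p below 0.05 the count among the 10 was also 0, and DESeq2 and limma-voom called 0 as well. Over all genes 0.0343% were called, and 2.14% had an unadjusted p below 0.05. Knockout and control values overlapped for every one of the 10 genes, while 0.538% of all genes had no overlap. A miss of the threshold does not show equal levels, and the intervals give the sizes of change these libraries still allow.

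Ptbp1 had 49.42, 45.73, 47.84, 47.32 and 44.39 CPM in the knockout libraries, against 52.94, 43.9, 47.14, 51.45 and 47.61 CPM in the control libraries. The values intermingled, with means of 46.9 ± 1.94 and 48.6 ± 3.61 CPM (SD, n = 5 each). Ptbp2 averaged 277 ± 15.4 CPM in knockout and 278 ± 9.88 CPM in control libraries, and the TPM ratio of Ptbp2 to Ptbp1 had a median of 3.87 in knockout and 3.64 in control libraries, with overlapping ranges of 3.59 to 3.94 and 3.53 to 4.05. Srrm4 averaged 139.5 ± 10.8 CPM in knockout and 139.8 ± 5.76 CPM in control libraries. For these 3 regulators the difference in means was smaller than either SD.

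The Elavl genes were likewise near one another in knockout and control cells. Elavl2 averaged 474.5 ± 20.8 CPM in knockout and 474.8 ± 32.9 CPM in control libraries. Elavl3 had 707, 711.1, 735.4, 755 and 718.5 CPM in knockout libraries, against 736.8, 692.3, 709.2, 749.6 and 690.5 CPM in control libraries, and its 95% confidence interval of the log2 fold change was -0.054 to 0.093. Elavl4 averaged 420.2 ± 22.8 CPM in knockout and 420.2 ± 18.8 CPM in control libraries. Each pair of means differed by less than 1 SD.

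Rbfox1 averaged 326 ± 17.5 CPM in knockout and 335 ± 14.6 CPM in control libraries, Rbfox2 558 ± 18 and 549 ± 24.9 CPM, and Rbfox3 156 ± 8.27 and 157 ± 5.96 CPM. None of the 3 differed by more than the spread of its libraries. Nova1 had 402.5, 397.6, 366, 370.9 and 400.9 CPM in knockout libraries, against 384.9, 455.1, 373.9, 382.7 and 387.1 CPM in control libraries. A single control library stood high at 455.1 CPM, and the log2 fold change was -0.034 with it and 0.020 without it, neither of them called. The family shares of TPM were alike in range, for example 30.4 to 33.5% in knockout and 28.4 to 34.8% in control libraries for Elavl2.

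**Figure D4:**
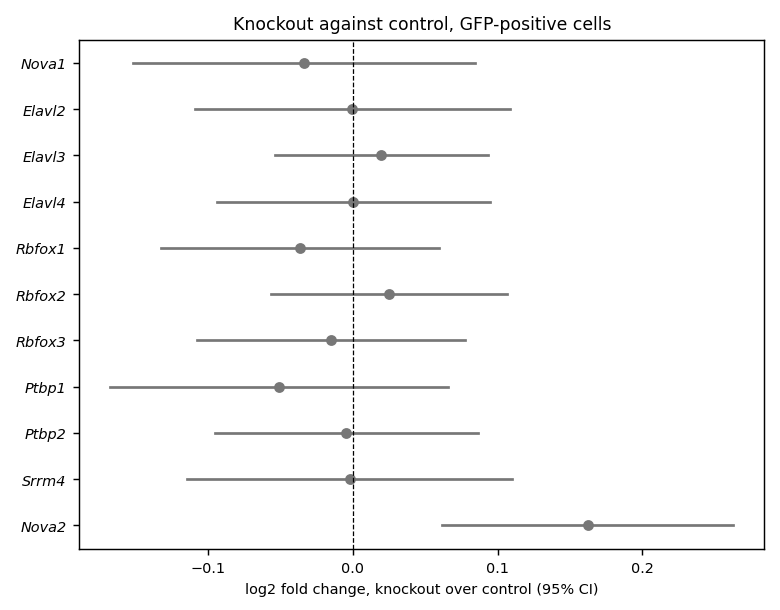
Log2 fold change of knockout over control in GFP-positive cells for the 10 genes and Nova2 (horizontal axis), with points for edgeR estimates from 5 knockout and 5 control libraries and bars for 95% confidence intervals. All intervals of the 10 genes include 0, and Nova2 lies at 0.16 with an interval from 0.061 to 0.26 but an edgeR adjusted p of 0.9999, so no point carries a call.

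Nova2 was the 1 gene among the fixed lists of RNA-binding protein genes and targets with an unadjusted p below 0.05 for the knockout. It had 369.3, 352.6, 382.8, 375.9 and 340.6 CPM in knockout libraries, against 354, 322.4, 314.5, 334.8 and 302.2 CPM in control libraries. The knockout library was higher in 5 of 5 pairs of the same replicate number, though the groups overlapped. In GFP-negative cells, with 1 library per genotype, Nova2 was lower in the knockout, at 416.5 CPM against 435.8 CPM. The log2 fold change was 0.16 ± 0.0462 (unadjusted p = 0.0043, edgeR adjusted p = 0.9999), and with the replicate number as a block it was 0.16 (edgeR adjusted p = 0.293), so it was not called. Nova2 (chr7:18925888-18965319) lies 2.31 Mb from Arhgap35 on the same chromosome, and 31% of its 31-base words also occur in other genes, nearly all in the antisense gene Gm26821. With Nova2 and Gm26821 summed, which was tried after seeing the data, the log2 fold change was 0.15 (edgeR adjusted p = 0.9999).

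Whether the knockout acted differently in the sorts was tested as the knockout effect in GFP-positive cells minus that in GFP-negative cells. None of the 10 genes was called, with differences from -0.14 for Ptbp1 to 0.083 for Elavl3 on the log2 scale, and 95% confidence intervals that reached from -0.41 to 0.28. The smallest unadjusted p was 0.298, so the count at an unadjusted p below 0.05 was 0, and DESeq2 and limma-voom called 0 too. Over all genes 0.0253% were called, and 1.78% had an unadjusted p below 0.05. Each lone GFP-negative library is assumed here to vary like the replicated groups. Ptbp1, with the largest difference, had 138 CPM in the knockout and 130.1 CPM in the control GFP-negative library.

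Other RNA-binding protein genes mostly fell in GFP-positive cells. Of 35 SR and hnRNP proteins and their relatives, which act in splicing in most cells, 0 were higher and 34 lower, with a median log2 fold change of -0.61, against 0.018 over all genes tested and calls lower in 31.8% of them. Hnrnph2 had 110 ± 2.65 CPM in GFP-positive libraries (SD, n = 10) against 172 and 174 CPM in GFP-negative libraries (log2 fold change -0.65), and Hnrnpu, Tra2b and Hnrnpd fell by 0.70, 0.73 and 0.60 on the log2 scale. Srrm2, a large scaffold of the spliceosome and of nuclear speckles, was the exception (log2 fold change -0.051, edgeR adjusted p = 0.455), named after its values were seen. These abundant splicing factors were thus lower alongside Ptbp1, Ptbp2 and Srrm4.

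Of 26 further genes for tissue-regulated splicing factors 24 passed the filter, and 5 of these were higher, 15 lower and 4 not called (median log2 fold change -0.30), against 30.1% higher and 31.8% lower over all genes. The CELF genes, for splicing and translation factors, went both ways. Celf5 and Celf6 rose by 0.49 and 0.46 on the log2 scale, whereas Celf1, Celf2, Celf3 and Celf4, picked after their values were seen, fell by 0.69, 2.28, 0.20 and 0.29. Khdrbs2, a neuronal splicing factor, rose by 0.62 on the log2 scale, beside Ptbp3 and Qk. Of these, Qk was picked after its values were seen. Rbm38 had 10.8 ± 1.25 CPM in GFP-positive libraries against 30.3 and 33.5 CPM in GFP-negative libraries (log2 fold change -1.56), and Rbm24, Raver1 and Khdrbs1 fell by 1.68, 0.67 and 0.59 on the log2 scale. Raver1 is a known partner of PTBP1.

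Of 24 genes for mRNA stability and translation, 5 were higher, 15 lower and 4 not called (median log2 fold change -0.33), against the same 30.1% higher and 31.8% lower over all genes. Those higher were Cpeb1, Cpeb2, Cpeb3 and Cpeb4, which bind cytoplasmic polyadenylation elements, and Stau2, which acts in RNA transport in dendrites. Cpeb4 was picked after its values were seen. Cpeb1 had 16.2 ± 2.84 CPM in GFP-positive libraries against 1.46 and 1.57 CPM in GFP-negative libraries (log2 fold change 3.42, edgeR adjusted p = 7.26e-08), larger in size than the fold change of any of the 10 regulators. Msi1, a translational regulator of neural progenitors, had 137 ± 13.9 CPM in GFP-positive libraries against 418 and 425 CPM in GFP-negative libraries (log2 fold change -1.62). Zfp36l2, which promotes decay of AU-rich transcripts, Pum2 and Fmr1 fell by 2.16, 0.80 and 0.56 on the log2 scale.

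REST represses neuronal genes outside neurons, Srrm4 among its known targets, and SRRM4 in turn promotes a neuronal splice form of Rest. Of 12 genes for REST, its corepressors and its phosphatases, 2 were higher and 10 lower (median log2 fold change -0.83), beside 30.1% higher and 31.8% lower over all genes. Rest had 7.31 ± 1.04 CPM in GFP-positive libraries against 21.3 and 22.4 CPM in GFP-negative libraries (log2 fold change -1.58, edgeR adjusted p = 1.60e-07). Srrm4 and Rest were both lower in GFP-positive cells. Ctdsp1, a phosphatase that stabilises REST, and the corepressors Rcor2 and Rcor1 fell by 1.83, 1.78 and 0.84 on the log2 scale, whereas Ctdspl and Rcor3 rose by 1.43 and 0.42.

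Of 16 genes described elsewhere as targets of these regulators, 13 were higher, against a background of 30.1%, and 3 were lower (median log2 fold change 0.60). This list was chosen with earlier results of these data known. The postmitotic neuron markers above also had 7 of 8 genes higher and 1 lower (median log2 fold change 1.03). Whether the rise goes with being a target was not tested. Gap43, a growth cone protein whose mRNA is bound by ELAVL4, had 1251 ± 90.4 CPM in GFP-positive libraries against 178.6 and 184 CPM in GFP-negative libraries (log2 fold change 2.79, edgeR adjusted p = 5.42e-11). Mapt, which encodes tau, rose by 1.85 on the log2 scale, and Dlg4, with an exon known to be repressed by PTBP proteins, rose by 0.51. Those lower were Mef2c, Bak1 and Src, at -0.74, -0.31 and -0.11 on the log2 scale. Without the control GFP-negative library the count lower was 1 in place of 3. These are gene totals, so exon choice in the targets was not measured.

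**Figure D5:**
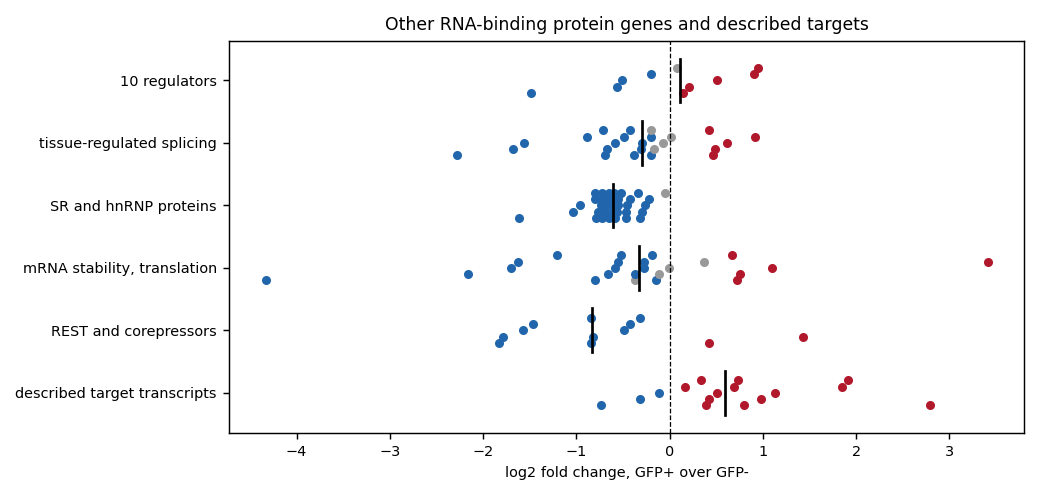
Log2 fold change of GFP-positive over GFP-negative cells (horizontal axis) for the 10 regulators and 5 lists of related genes, 1 point per gene, with black ticks for medians. Red marks higher, blue lower and grey not called at an edgeR adjusted p below 0.05, and 34 of 35 SR and hnRNP genes are lower while 13 of 16 target transcripts are higher.

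None of these lists held a gene called for the knockout in GFP-positive cells by edgeR, DESeq2 or limma-voom. The list medians lay between -0.017 and 0.016 on the log2 scale, against -0.0016 over all genes. Among the genes with the smallest p per list, beside Nova2, were Tial1 (-0.083), Hnrnpl (0.064), Hnrnpa1 (-0.051), Pabpc1 (0.065), Fxr1 (0.044), Ehmt2 (-0.026), Ctdspl (-0.054) and Ank3 (0.088), given as log2 fold changes, each with an edgeR adjusted p of 0.9999. Marker sums for the same libraries were 1550 to 1920 CPM in knockout and 1480 to 1940 CPM in control libraries for motor neurons, and 474 to 575 CPM and 461 to 567 CPM for progenitors. Lists with larger shifts had low sums and overlapping ranges. Endothelial markers summed to 1.6 to 13.7 CPM in knockout and 1.34 to 4.53 CPM in control libraries, and of their 5 tested genes, whose log2 fold changes had a median of 0.79, 1 had an unadjusted p below 0.05. Erythroid markers summed to 4.1 to 46.8 CPM in knockout and 5.06 to 18.7 CPM in control libraries (median log2 fold change 0.63), and ventral interneuron markers to 16.5 to 62.2 CPM and 16.6 to 80 CPM (median log2 fold change -0.59). No gene of any marker list was called for the knockout by edgeR.

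Genes whose pattern over the 12 libraries was most like each regulator were found among 10657 genes by the root-mean-square difference of centred log2 CPM. For Ptbp1 they were Cdc42ep4 and Fam102a, at 0.0614 and 0.0641, against a median of 0.563 over all genes. For the other regulators this median was lower, from 0.182 for Rbfox2 to 0.397 for Rbfox1. For Ptbp2 they were Kdm1a and Rsrc2 (0.0396 and 0.0397), and for Srrm4 they were Tet2 and Rbm33 (0.0402 and 0.0419). Kdm1a, a histone demethylase of the CoREST complex, is a member of the REST list. The Elavl genes were matched by 4931428F04Rik and Dennd1a (Elavl2, 0.0381 and 0.0408), Hnrnpul2 and 1810026J23Rik (Elavl3, 0.0346 and 0.0349), and Akap1 and Mtmr4 (Elavl4, 0.0309 and 0.0421). The Rbfox genes were matched by B4galnt1 and Ap3b2 (Rbfox1, 0.0444 and 0.0457), Sbno1 and Zc3h7b (Rbfox2, 0.0248 and 0.031), and Rab6a and Dscr3 (Rbfox3, 0.0272 and 0.0345). Nova1 was matched by Urgcp and Srpk2 (0.0455 and 0.0478). As 2 of the 12 libraries are GFP-negative, likeness rests in large part on the difference between the sorts for regulators that differed there. Elavl3 was not called between the sorts. Its own root-mean-square deviation from its mean was only 0.0515, so its matches say little.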

How the data were processed

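PolyA RNA of sorted cells was read as 50-base single ends from kits that keep no strand, per the labels' protocols. The authors deposited estimated counts per gene symbol (expected counts, 39.2% of them whole) and TPM values. The submitters' processing notes name kallisto, with no version, and mm10. How transcripts became gene totals is not stated in them. All columns were matched to samples by their labels. Deposited TPM sum to 974800 to 1018241 per library, so they served for levels between genes and as an alternative only.

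Estimated counts were rounded to whole numbers, passed through filterByExpr and TMM scaling, and then tested with edgeR 4.0.16 (robust quasi-likelihood, R 4.3.3), with Benjamini-Hochberg adjustment over all genes tested. Alternatives were other scalings and filters, DESeq2 1.42.0, limma-voom and limma 3.58.1 on log2 TPM with pseudocounts of 1 and 0.1, leaving out each library, either genotype alone and the replicate number as a block. Totals were 23.7 to 33.8 M counts, at which a floor of 3 counts is 0.0887 to 0.127 CPM, and counts carry no molecular identifiers, so floors cover counting error only. Replicates differed beyond sampling noise (chi-square over its degrees of freedom, 8.59 to 26.6). Labels do not name separate litters for the replicates, and the p-values therefore reflect only library-to-library spread, which may be technical.

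Knockout and control share replicate numbers. Residuals of libraries with the same number correlated at r of 0.381, 0.251, 0.179, 0.277 and 0.309 for numbers 1 to 5, against at most 0.103 for other pairs, so the numbers pair the libraries, though the labels do not say what they mark.

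The 10 genes and all lists were chosen with earlier results of these data known. Named besides them were Arhgap35, Nova2, up to 4 called genes per direction and list with the smallest p between the sorts, the 2 per list with the smallest p for the knockout, and the 2 genes most like each regulator (mean log2 CPM of at least 3). A gene that this rule names is not reported here. Grlf1 was given with Arhgap35 as its alias. Others are marked as picked after their values were seen. Coordinates and 3′ UTRs come from GENCODE M21 and promoters from RefSeq, both on GRCm38. No protein sequence was used here.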

Additional observations from a re-analysis of the deposited data

Results flagged for a closer look

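Nova1 stood high in 1 control GFP-positive library, replicate 2, at 455.1 CPM, while the other 4 control libraries had 373.9 to 387.1 CPM. The gap to the next library was 0.837 of the group's whole range, above Dixon's critical value of 0.71 for 5 samples. It was the only one past that value among 66 groups of 5 tested, where chance puts about 1 in 20 past it. Without that library the log2 fold change of Nova1 in knockout over control was 0.020, against -0.034 with it, and neither was called.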

How the results depend on the processing

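Of the 10 regulators, none was called for the knockout or for its difference between the sorts under any alternative run, and the 95% intervals given with the results set what these 5 against 5 libraries can show. Between the sorts the count called ran from 6 to 10, with 9 as reported, and the 1 GFP-negative library per genotype is the main limit. Leaving out 1 library in turn gave 6 to 9 calls, 6 without the control and 7 without the knockout GFP-negative library. Ptbp1, Ptbp2, Srrm4, Elavl2, Rbfox1 and Rbfox3 kept their direction and call throughout. With library size as the only scaling, Nova1 (0.16, edgeR adjusted p = 0.0509) and Elavl4 (0.092, edgeR adjusted p = 0.151) were not called. In knockout libraries alone Elavl4 (0.15) and Rbfox2 (-0.15) were not called, in control libraries alone Nova1 (0.23) and Elavl4 (0.15). The cause was not tested. With the replicate block, fitted because the numbers pair the libraries, 9 regulators were called between the sorts (Elavl4 at 0.21, against 0.14) and 0 for the knockout, and it changed no call of the 10 regulators or Nova2. Both GFP-negative libraries carry replicate number 1, so under the block the difference between the sorts comes from that replicate alone. Scaling moved the median of all genes between the sorts from 0.018 to at most -0.034. Summing Ptbp1 with its antisense neighbour E130317F20Rik, an alternative chosen after seeing the data, gave -0.037 for the knockout. Between the sorts Ptbp1 stayed lower in all 28 alternatives, this sum among them, with log2 fold changes from -1.56 to -1.27.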

Other observations

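Among the 10 GFP-positive libraries, genotypes together, the regulators varied little in CPM. The coefficient of variation was lowest for Elavl3 at 3.15% and Rbfox2 at 3.81%, and highest for Nova1 at 6.48% and Ptbp1 at 6.01%. The other 6 lay between 4.38 and 5.87%. The antisense gene E130317F20Rik, which overlaps Ptbp1, had 1.22 to 5.02 CPM in GFP-positive libraries, against 3.69 and 3.76 CPM in GFP-negative libraries, and Gm26821, which overlaps Nova2, was listed at a median of 0 in GFP-positive libraries and at 4.71 and 11.9 CPM in GFP-negative libraries.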
